A study of Mus musculus with 12 samples.

Results

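The report covers 10 mouse genes of oxygen transport and iron handling, taken by exact symbol from the 29957 named genes of the deposited tables. They are 4 adult globins (Hba-a1, Hba-a2, Hbb-bs, Hbb-bt), both ferritin chains (Fth1, Ftl1), heme oxygenase (Hmox1), the transferrin receptor (Tfrc), the iron exporter ferroportin (Slc40a1) and transferrin (Trf). RNA was sequenced from 12 samples of C57BL/6 mice in 4 groups of 3: hippocampal microglia at 24 and at 3 months of age, and whole hippocampus at 18 and at 6 months. The labels name no treatment or mutation, no way of isolating the microglia and no mouse of origin for a sample. A p-value therefore reflects how far these samples spread, which may be technical. The 10 genes were chosen by their roles and by their measured values in both of these comparisons, so their values are given as a description.

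Red blood cells carry oxygen on hemoglobin, which pairs alpha chains (Hba-a1, Hba-a2) with beta chains (Hbb-bs, Hbb-bt), each holding a heme. In brain tissue most globin mRNA is usually taken to sit in blood within the vessels, with reports of low levels in neurons and glia. Iron reaches cells bound to transferrin and enters through the transferrin receptor. Inside, ferritin cages of heavy and light chains store it, ferroportin lets it out again, and heme oxygenase frees it from heme. Microglia, the resident macrophages of the brain, take up cell debris and store iron, and oligodendrocytes are the best known source of transferrin mRNA in brain.

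Part of this system is set through RNA hairpins, the iron-responsive elements, bound by the proteins encoded by Aco1 and Ireb2 when iron is scarce. Bound near the start of an mRNA they block its translation, and bound after the coding part they protect it from decay. The members that hold such a hairpin are therefore shown. Near the start of an mRNA it can make mRNA level and protein differ, and after the coding part it can change the mRNA level itself. The mouse transcripts (GENCODE M21, GRCm38, transcript strand only) were searched for such a hairpin. The pattern was a C, 5 bases, the loop and 5 bases that pair with those before the loop, G-U pairs allowed. The loop was CAGTG followed by A, C or T. It was found in 222 of 21877 protein-coding genes (1.01%). Of the 10 members 4 had a match: Fth1, Ftl1 and Slc40a1 with 1 each in the 5′ untranslated region, and Tfrc with 4 in the 3′ untranslated region, of which the first is printed. The capitals mark the loop.
Fth1, chr19:9982732-9982761, plus strand: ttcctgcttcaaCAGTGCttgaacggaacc
Ftl1, chr7:45459778-45459807, minus strand: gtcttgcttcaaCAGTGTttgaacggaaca
Slc40a1, chr1:45925464-45925493, minus strand: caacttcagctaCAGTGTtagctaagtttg
Tfrc, chr16:32631219-32631248, plus strand: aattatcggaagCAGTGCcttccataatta

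The 4 globin promoters are shown because 3 of these genes stood together in the aged hippocampus. RefSeq (GRCm38.p6) gave a promoter for 7 of the 10 members. Its starts differ from those of the GENCODE gene spans given below, so the globin stretches printed here reach into those spans. In the 130 bases before the RefSeq start, searched on both strands, each globin held the motif CACCC, which 33.7% of all 32851 promoters held. Each also held the motif CCAAT, held by 22.4% of all, and the motif TATAA, held by 12.7%. All 3 together stood in 271 promoters (0.825%). The motif GATAA, held by 11.4% of all, stood in none of the 4 globin stretches on either strand. The capitals mark the 3 motifs that each globin held. Such matches describe the letters and no binding.
Hba-a1, chr11:32283542-32283671, plus strand: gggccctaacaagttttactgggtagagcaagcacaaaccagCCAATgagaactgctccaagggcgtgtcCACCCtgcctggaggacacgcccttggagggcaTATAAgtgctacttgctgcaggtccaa
Hba-a2, chr11:32296362-32296491, plus strand: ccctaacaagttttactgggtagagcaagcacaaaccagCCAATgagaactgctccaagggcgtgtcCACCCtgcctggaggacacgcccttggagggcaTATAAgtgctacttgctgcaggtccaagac
Hbb-bs, chr7:103827929-103828058, minus strand: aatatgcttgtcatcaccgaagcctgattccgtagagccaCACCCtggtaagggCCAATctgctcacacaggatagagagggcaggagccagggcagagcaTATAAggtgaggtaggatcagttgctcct
Hbb-bt, chr7:103813924-103814053, minus strand: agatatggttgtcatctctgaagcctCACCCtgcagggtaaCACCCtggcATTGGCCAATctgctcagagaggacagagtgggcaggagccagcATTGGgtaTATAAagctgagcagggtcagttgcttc

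The region upstream of Hba-a1 was identical to that of Hba-a2 over all 247 aligned bases, and that of Hbb-bs matched that of Hbb-bt at 185 of 239 (77.4%). The mRNAs are alike as well: the main transcripts of Hba-a1 and Hba-a2 share 477 stretches of 31 bases, and those of Hbb-bs and Hbb-bt share 400. The main Hba-a1 and Hbb-bs transcripts share 0. The split of reads within the alpha pair and within the beta pair is therefore uncertain, and sums of each pair are given too.

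Estimated counts per microglia library came to between 8072855 and 14226478, and the hippocampus columns held 974372 to 1002839 normalized counts, with true depth unknown. A read was worth roughly 0.515 to 1.80 normalized counts, judged from genes seen in a single library. The 10 microglia markers summed to 49627.7 to 66235.0 CPM at 24 months, all below the 69123.4 to 73429.8 CPM at 3 months. In the hippocampus the 10 neuron markers summed to 16323.6 to 16637.2 normalized counts at 18 months and 14278.5 to 15907.8 at 6 months. The old microglia libraries were unlike each other. Fos, an immediate early gene, stood at 4190.4, 4261.3 and 48.5 CPM in 24 month replicates 1, 2 and 3, against 28.2, 2.99 and 7.76 CPM at 3 months. Mitochondrial mRNA took 0.883%, 0.888% and 0.326% of the counts at 24 months, against 0.249% to 0.293% at 3 months. The 10 neutrophil and monocyte markers summed to 2414.2, 49.9 and 3.61 CPM at 24 months, against 1.97 to 9.60 CPM at 3 months. Among the 7840 genes whose mean exceeded 10 CPM, 186 (2.37%) were without a count in 24 month replicate 1 and 394 (5.03%) in 3 month replicate 1, against 26 to 62 in each other library.

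Whole hippocampus of 18 months held more globin mRNA than hippocampus of 6 months in every library. The 4 globins together came to 103.6, 317.9 and 217.6 normalized counts at 18 months, against 54.8, 41.9 and 30.96 at 6 months. The means were 213.0 ± 107.2 and 42.6 ± 12.0 normalized counts (SD, n = 3 each), a ratio of 5.00. The lowest aged library, replicate 1, still lay above the highest library of 6 months. Without 18 month replicate 2, the library with the most globin, the log2 ratio of the means was 1.92 in place of 2.32. In such bulk tissue more cells of a type and more RNA per cell cannot be told apart.

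Among the alpha globins, Hba-a1 (chromosome 11, 32283511 to 32284465, GRCm38) had 29.9, 58.4 and 38.8 normalized counts at 18 months, against 6.83, 5.43 and 7.54 at 6 months. Hba-a2 (chromosome 11, 32296489 to 32297298), which lies next to it, had 41.4, 131.2 and 98.9 normalized counts at 18 months, against 20.4, 9.65 and 12.7 at 6 months. For neither gene did the groups overlap. The alpha sum averaged 132.9 ± 59.3 normalized counts at 18 months and 20.9 ± 6.08 at 6 months (SD, n = 3 each), 6.37 times as much.

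The beta globin Hbb-bs (chromosome 7, 103826534 to 103828096) had 32.3, 111.1 and 74.1 normalized counts at 18 months, against 19.7, 26.9 and 10.7 at 6 months. Its groups did not overlap either, but the gap was narrow: aged replicate 1 lay close to 6 month replicate 2. Hbb-bt (chromosome 7, 103812524 to 103813996), the second adult beta gene, had 0, 17.2 and 5.73 normalized counts at 18 months, against 7.93, 0 and 0 at 6 months. These values correspond to a small number of reads, and the groups overlapped. With that gene added, the beta sum averaged 80.1 ± 48.1 normalized counts at 18 months and 21.7 ± 9.57 at 6 months (SD, n = 3 each).

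**Figure D1:**
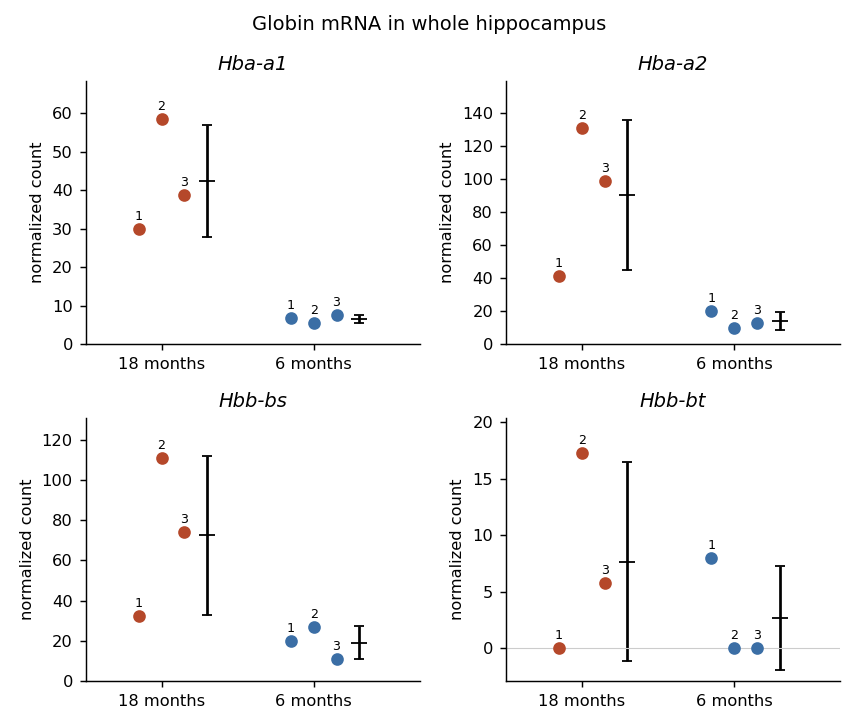
Normalized counts of the 4 globin genes (vertical axes, each with its own range) in whole hippocampus at 18 months (left in each panel) and 6 months (right); each point is a library with its replicate number, and the bar is the mean ± SD (n = 3). Hba-a1, Hba-a2 and Hbb-bs lie higher in all 3 libraries of 18 months, with replicate 2 the highest, while Hbb-bt is at 0 in 3 of the 6 libraries.

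Over all 13491 genes tested, limma's moderated test on log2(normalized count + 1) called 0 genes higher and 0 lower at 18 months (0% each) and so none of the 10 members. Before adjustment, 725 genes (5.37%) had a p under 0.05, among them those 3 globins, Fth1 and Tfrc. The log2 changes were 2.47 ± 0.59 (SE) for Hba-a1, 2.49 ± 0.49 for Hba-a2, 1.79 ± 0.51 for Hbb-bs and 1.26 ± 1.21 for Hbb-bt, with adjusted p-values of 0.665, 0.405, 0.877 and 0.928 (limma). On this scale the change of low genes is understated. Every library of 18 months lay above every library of 6 months for 5 members (Hba-a1, Hba-a2, Hbb-bs, Fth1, Ftl1), and below for 1 (Tfrc), against 5.03% and 5.93% of all genes tested.

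In the authors' deposited table of the same samples, 14 of 11817 genes passed an adjusted p of 0.05 as higher at 18 months (0.118%) and 22 as lower (0.186%). The globins Hba-a2, Hba-a1 and Hbb-bs were 3 of those 14. Turned to 18 minus 6 months, the authors' deposited table gave log2 changes of 2.61 ± 0.46 (SE, adjusted p = 3.64e-05) for Hba-a2, 2.65 ± 0.57 (0.00315) for Hba-a1 and 2.01 ± 0.48 (0.0199) for Hbb-bs. These calls entered the choice of the members. Hbb-bt, at 1.45 ± 1.60 (SE, adjusted p = 0.940) in the authors' deposited table, was not called.

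Other genes of red blood cells did not show the same order. Alas2, the red cell form of the first enzyme of heme synthesis, had 0, 6.04 and 4.03 normalized counts at 18 months, against 2.68, 4.10 and 8.32 at 6 months. Of 20 listed red cell markers other than globins, 7 were in the table and tested, 4 with a log2 change above 0 and 3 below. In none of the 7 did the groups stand apart. Over all genes tested they did so for 11%, in either direction, so 0 of 7 is close to that share. The median log2 change of the 7 was 0.10, against -0.04 over all genes.

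Vessel and ventricle genes varied between libraries. The 10 endothelial markers summed to 470.2, 721.7 and 516.0 normalized counts at 18 months, against 571.5, 517.7 and 615.9 at 6 months. The 10 choroid plexus markers, led by Ttr, summed to 3548.4, 10993.9 and 249.6 at 18 months, against 136.6, 6959.7 and 2298.1 at 6 months. Both sums were highest in aged replicate 2, the library with the most globin. Among the aged libraries the endothelial sum stood in the order of the globin sum, and the choroid plexus sum did not. At 6 months neither sum stood in the order of the globin sum. Their part in the globin values was not tested.

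Of the globins outside red cells, Cygb (cytoglobin) had 55.6, 63.4 and 74.5 normalized counts at 18 months, against 32.4, 38.0 and 35.6 at 6 months, with no overlap (log2 change 0.84 ± 0.33, SE; limma adjusted p = 0.877). Ngb (neuroglobin) overlapped, at 7.01, 9.13 and 5.30 against 0.512, 1.79 and 20.9 normalized counts.

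In microglia, globin mRNA was sparse, uneven and without a common direction with age. The alpha pair summed to 26.8, 0 and 21.3 TPM at 24 months, against 146.1, 20.9 and 25.6 TPM at 3 months. The beta pair summed to 35.8, 9.21 and 5.46 TPM at 24 months, against 0, 1.39 and 5.52 TPM at 3 months. TPM corrects for transcript length, so the pairs can be compared: beta exceeded alpha in 24 month replicates 1 and 2, and alpha exceeded beta in the other 4 libraries. In 3 month replicate 1 the highest alpha sum of all stood beside a beta sum of 0. That library also lacked a count for the most expressed genes overall (5.03% of those with a mean above 10 CPM). The part of this in the beta sum of 0 was not tested.

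**Figure D2:**
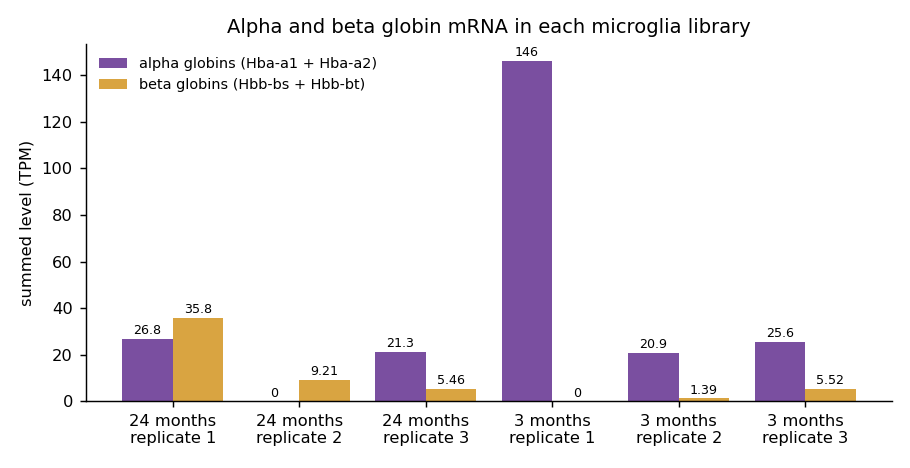
Summed level in TPM (vertical axis, from 0) of the alpha globins Hba-a1 and Hba-a2 (purple) and the beta globins Hbb-bs and Hbb-bt (yellow) in each of the 6 microglia libraries, 24 months on the left and 3 months on the right. Alpha reaches 146.1 TPM in 3 month replicate 1 with beta at 0, and beta reaches 35.8 TPM in 24 month replicate 1.

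The counts behind these levels were low. The alpha pair had 98, 0 and 72 estimated counts at 24 months, against 728, 57 and 123 at 3 months. Hbb-bs had 128, 24 and 20 at 24 months, against 0, 4 and 28 at 3 months. The exact 95% Poisson interval of the 128 counts was 107 to 152 and that of the 28 counts 18.6 to 40.5, which cover counting error only.

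Hbb-bt had a count of 0 in all 6 microglia libraries, and the exact 95% Poisson interval of a count of 0 reached 0.251 to 0.460 CPM, depending on the library. The other 3 globins had edgeR log2 changes, 24 minus 3 months, of -1.79 ± 1.83 (SE) for Hba-a1, -2.23 ± 1.82 for Hba-a2 and 2.87 ± 1.78 for Hbb-bs, with adjusted p-values of 0.993, 0.993 and 0.973. The alpha values rested on 3 month replicate 1, without which they were -0.27 and -0.59. That of Hbb-bs ranged from 1.40, with 24 month replicate 1 left out, to 4.57, with 3 month replicate 3 left out. The log2 ratio of the mean CPM of all 4 globins was -1.04, and 0.39 without 3 month replicate 1.

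Other red cell genes varied from gene to gene in the microglia. Alas2 and Trim10 had no count in any library, and Slc4a1, the anion exchanger of the red cell membrane, reached at most 0.136 CPM. Ermap, a membrane protein of red cells, had 15.03, 8.07 and 17.5 CPM at 24 months, against 0.896, 16.1 and 15.5 CPM at 3 months. The 18 red cell markers in the table summed to 131.8, 128.3 and 110.9 CPM at 24 months, against 79.9, 103.0 and 87.7 CPM at 3 months. The sum was higher in each library of 24 months, and most of it was Ube2l6 and Bpgm, which other cells also express. All 4 markers tested had a log2 change above 0 (median 0.34), as did 50.5% of all genes tested. Of the 4, 0 were called, and the groups overlapped for each. Of the 9 other globin family genes in the table, 8 were at 0 in every library. Cygb had 3.87 CPM in 3 month replicate 2 and 0 elsewhere.

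The ferritin chains were among the most abundant mRNAs of microglia, and Fth1 was higher in every library of 24 months. Fth1, the heavy chain that oxidises iron for storage (chromosome 19, 9980598 to 9985098), had 2582.4, 2235.7 and 1617.7 CPM at 24 months, against 1211.1, 1451.8 and 1222.2 CPM at 3 months. Its means were 2145.3 ± 488.6 and 1295.0 ± 135.9 CPM (SD, n = 3 each). Ftl1, the light chain that helps the iron core form (chromosome 7, 45457944 to 45459884), had 5916.2, 4658.0 and 2633.5 CPM at 24 months, against 2816.8, 3174.7 and 2414.4 CPM at 3 months. Its groups overlapped through 24 month replicate 3, which lay within the range of 3 months. Ferritin genes have many processed pseudogenes, so how reads were assigned to Fth1 and Ftl1 is uncertain.

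Hmox1, the inducible heme oxygenase (chromosome 8, 75093621 to 75100589), had 186.2, 98.4 and 41.2 CPM at 24 months, against 31.7, 16.2 and 32.0 CPM at 3 months. All 3 libraries of 24 months were higher, by a wide margin in replicates 1 and 2 and narrowly in replicate 3. Hmox2, the constitutive form, overlapped at 272.2, 163.7 and 248.4 CPM at 24 months, against 255.7, 237.5 and 207.1 CPM at 3 months. Within the old group, Fth1, Ftl1 and Hmox1 stood in the same order, highest in replicate 1 and lowest in replicate 3, and replicates 1 and 2 were also those with high Fos and mitochondrial mRNA. The part of these library differences in the ferritin and Hmox1 values was not tested. Without 24 month replicate 1 the log2 changes were 0.57 for Fth1, 0.37 for Ftl1 and 1.38 for Hmox1.

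Slc40a1, which encodes ferroportin, the only known exporter of cellular iron in mammals (chromosome 1, 45908068 to 45926523), had 540.7, 414.2 and 449.5 CPM at 24 months, against 643.6, 613.5 and 648.4 CPM at 3 months. Every library of 24 months was lower, and the 3 month libraries were close to each other. The means were 468.2 ± 65.3 and 635.2 ± 18.9 CPM (SD, n = 3 each), a ratio of 0.737. The 10 microglia markers, in sum, were lower in the same libraries, and their part in this value was not tested.

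Trf, the plasma iron carrier (chromosome 9, 103204001 to 103230444), had 3229.1, 3336.1 and 4155.8 CPM at 24 months, against 3492.2, 4120.8 and 3170.1 CPM at 3 months. The groups overlapped throughout. The 15 listed oligodendrocyte markers summed to 212.8, 178.5 and 264.7 CPM at 24 months, against 202.7, 207.0 and 173.6 CPM at 3 months. Of the 15, 7 were at 0 in every library. The part of oligodendrocyte RNA in the Trf value was not tested.

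Tfrc, which takes up iron-loaded transferrin (chromosome 16, 32608920 to 32632794), had 0, 18.4 and 40.7 CPM at 24 months, against 0, 3.49 and 37.8 CPM at 3 months. Values of both ages ran from 0 to a similar top level. It was at 0 in replicate 1 of each age, the libraries that lacked a count for the most expressed genes overall. Its log2 change of 0.52 ± 2.28 (SE, edgeR adjusted p = 0.998) turned to -0.62 without 24 month replicate 3 and to -0.07 without 3 month replicate 1.

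**Figure D3:**
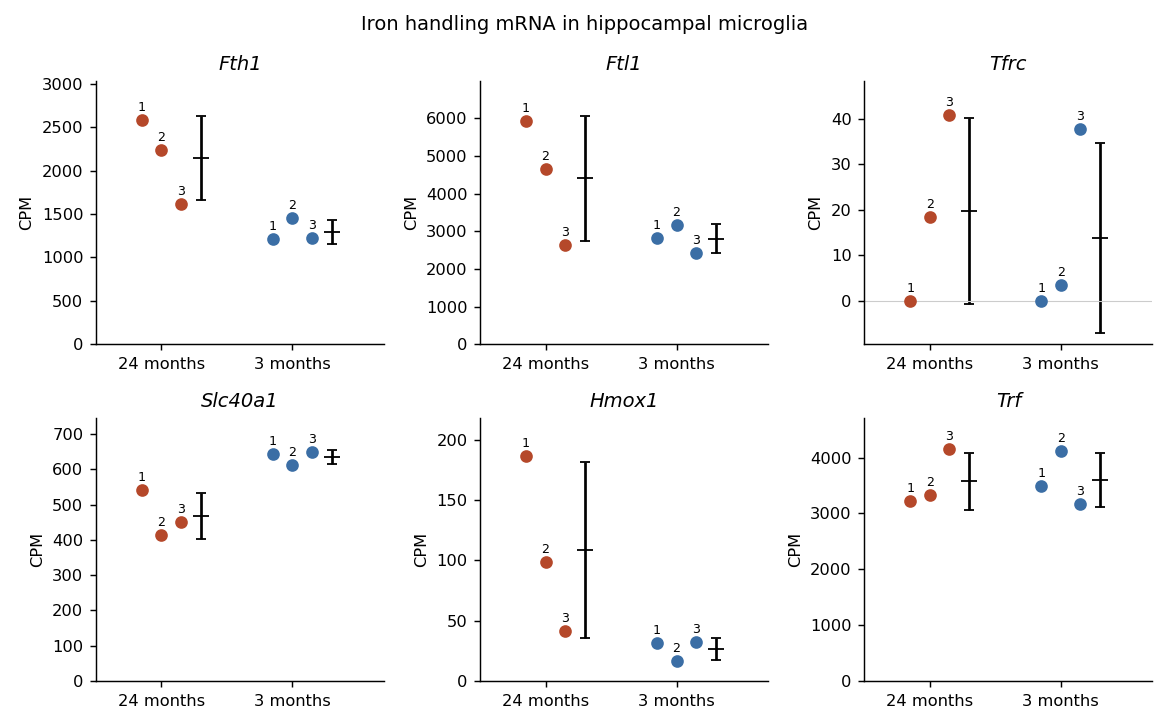
CPM of the 6 iron handling genes (vertical axes, each with its own range) in hippocampal microglia at 24 months (left in each panel) and 3 months (right); points are libraries with their replicate numbers and bars are mean ± SD (n = 3). Fth1 and Hmox1 lie higher and Slc40a1 lower in all 3 libraries of 24 months, Ftl1 and Trf overlap, and Tfrc is at 0 in replicate 1 of both ages.

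Across the 10663 microglial genes tested, edgeR called 0 higher and 0 lower at 24 months (0% each) by its quasi-likelihood test, and 590 (5.53%) had an unadjusted p under 0.05. DESeq2 called 194 higher and 57 lower among 11539 genes (2.18% in all), no member among them. Of the 10 members 9 passed the filter on low counts, and Fth1, Hmox1 and Slc40a1 had an unadjusted p under 0.05. The log2 changes were 0.73 ± 0.21 (SE, adjusted p = 0.629) for Fth1, 0.65 ± 0.30 (0.914) for Ftl1, 2.03 ± 0.60 (0.629) for Hmox1, -0.44 ± 0.17 (0.871) for Slc40a1 and -0.01 ± 0.18 (0.998) for Trf. Every library of 24 months lay above every library of 3 months for 2 members (Fth1, Hmox1) and below for 1 (Slc40a1), against 7.26% and 6.18% of all genes tested. By the authors' deposited table, a total of 243 of 12082 genes passed (2.01%), 1.54% as higher and 0.472% as lower, and no member was among them, with adjusted p-values of 0.0862 for Hmox1 and 0.183 for Fth1.

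Per length, the members ranked in microglia as Ftl1 with a mean of 5880.9 TPM over the 6 libraries, Fth1 with 2955.9, Trf with 2070.0, Slc40a1 with 250.7, Hmox1 with 65.4, Hba-a2 with 24.3, Hba-a1 with 15.8, Hbb-bs with 9.56, Tfrc with 5.09 and Hbb-bt with 0 TPM. Ftl1, Fth1 and Trf stood at ranks 13, 26 and 35 of all genes. Ftl1 exceeded Fth1 in each library, and Slc40a1 exceeded Hmox1 in each. Fth1 and Trf changed places between libraries: Fth1 was higher in all 3 libraries of 24 months (2882.5 to 4232.6 against 1750.4 to 2448.6 TPM for Trf), while at 3 months their ranges overlapped (1978.0 to 2497.5 and 1949.5 to 2340.2 TPM). From Hmox1 down to Tfrc neighbouring genes overlapped across libraries, so that order is loose.

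In whole hippocampus both ferritin chains were slightly higher, and Tfrc lower, in every library of 18 months. Fth1 had 4446.9, 4357.8 and 4354.0 normalized counts at 18 months, against 4148.8, 3244.7 and 3602.6 at 6 months. Ftl1 had 707.9, 676.9 and 649.3 normalized counts at 18 months, against 560.0, 632.3 and 569.5 at 6 months. For both ferritins the groups did not overlap, with a ratio of means of 1.20 for Fth1 and 1.15 for Ftl1.

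Tfrc had 29.7, 53.0 and 49.0 normalized counts at 18 months, against 75.5, 136.1 and 61.9 at 6 months. All 3 aged libraries were lower, and the means were 43.9 ± 12.5 and 91.2 ± 39.5 normalized counts (SD, n = 3 each). Its log2 change was -0.998 ± 0.361 (SE, limma adjusted p = 0.877), and -0.67 without 6 month replicate 2. The summed endothelial markers, which mark a cell type rich in transferrin receptor, overlapped between the ages. Their part in the Tfrc value was not tested.

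Trf had 808.2, 867.1 and 826.2 normalized counts at 18 months, against 669.1, 856.9 and 624.8 at 6 months. The groups overlapped through 6 month replicate 2. The sums of the oligodendrocyte markers overlapped too, through 6 month replicate 1, at 8326.8 to 9837.3 and 7914.2 to 9127.6 normalized counts. Their part in the Trf value was not tested. Slc40a1 had 7.36, 40.8 and 11.7 normalized counts at 18 months, against 17.9, 28.3 and 20.8 at 6 months. Its log2 change of -0.48 ± 0.67 (SE) became 0.0055 without 18 month replicate 1. Hmox1 was low, at 5.69, 4.15 and 7.71 normalized counts at 18 months, against 2.92, 7.47 and 1.53 at 6 months.

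**Figure D4:**
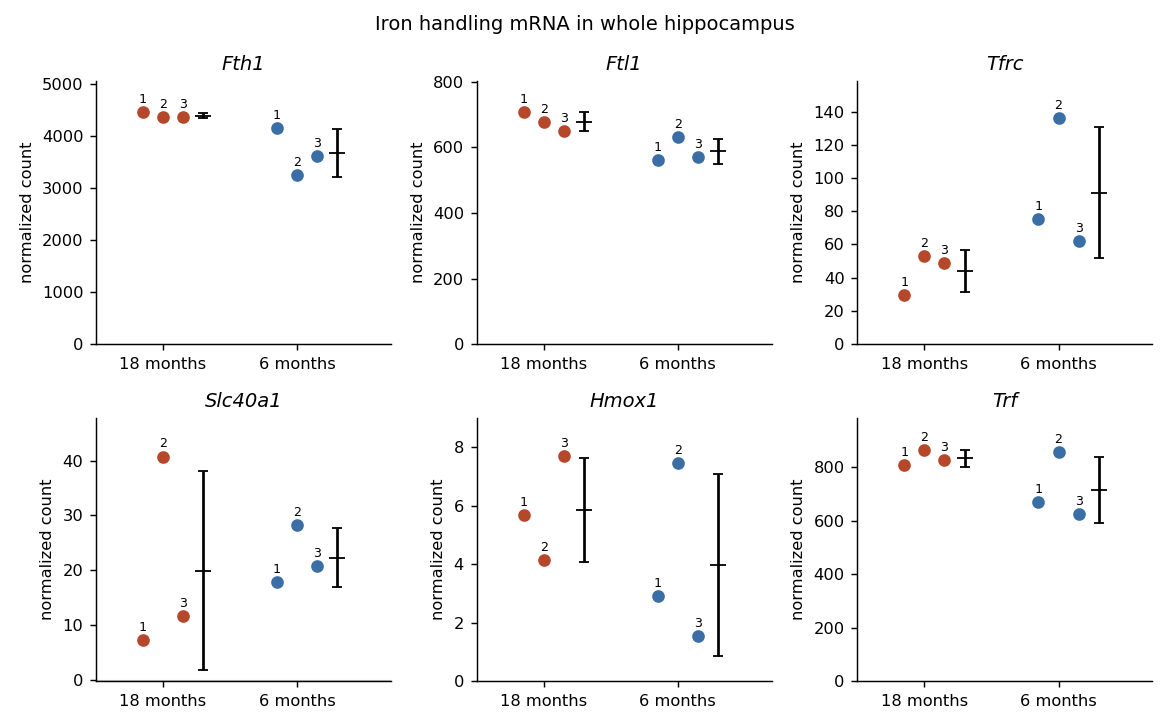
Normalized counts of the 6 iron handling genes (vertical axes, each with its own range) in whole hippocampus at 18 months (left in each panel) and 6 months (right); points are libraries with their replicate numbers and bars are mean ± SD (n = 3). Fth1 and Ftl1 lie higher and Tfrc lower in all 3 libraries of 18 months, and Slc40a1, Hmox1 and Trf overlap.

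The limma log2 changes of the other members were 0.27 ± 0.12 (SE, adjusted p = 0.907) for Fth1, 0.21 ± 0.13 (0.913) for Ftl1, 0.23 ± 0.15 (0.913) for Trf and 0.61 ± 0.87 (0.947) for Hmox1. In the authors' deposited table Fth1 (0.26, adjusted p = 0.706), Ftl1 (0.21, 0.734) and Tfrc (-0.97, 0.354) were not called. All 10 members passed the filter on low values there, and 8 had a higher and 2 a lower fitted value at 18 months (median log2 change 0.44). The 9 fitted members in microglia split 5 higher and 4 lower, with a median of 0.52. Over all genes tested the medians were -0.04 in hippocampus and 0.01 in microglia, and 47.2% and 50.5% of genes had a log2 change above 0. No fit across the tissues was made, as ages, tables and scales differ.

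**Figure D5:**
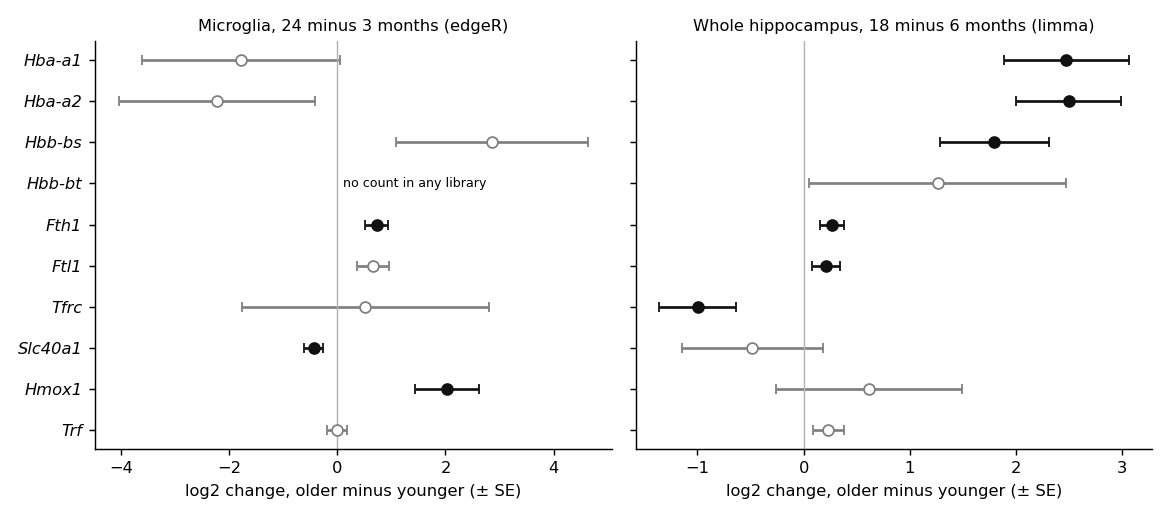
Fitted log2 change, older minus younger (horizontal axis, points with SE bars), of the 10 members in microglia at 24 minus 3 months (left, edgeR) and in whole hippocampus at 18 minus 6 months (right, limma); filled points have groups that do not overlap and open grey points have groups that do. The alpha globins are at -1.79 and -2.23 in microglia and at 2.47 and 2.49 in hippocampus, and none of the changes passed an adjusted p of 0.05.

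Around the members, genes of iron uptake, turnover and export showed no shared direction. In microglia 5 of 9 tested genes were higher, 4 lower and 0 called (median log2 change 0.04), and in hippocampus 8 of 13 were higher, 5 lower and 0 called (0.20). The 2 smallest p-values in microglia were those of Ncoa4, the receptor that sends ferritin for breakdown, at -0.38 ± 0.26 (SE, edgeR adjusted p = 0.990), and Slc11a2, the divalent metal transporter, at -0.63 ± 0.49 (0.993). In hippocampus they were those of Heph, a membrane ferroxidase, at -1.999 ± 0.964 (SE, limma adjusted p = 0.909), and Slc11a1. Ncoa4 had 114.0, 113.8 and 87.7 normalized counts at 18 months, all below the 146.0, 119.6 and 126.9 at 6 months (-0.32 ± 0.22). Cp, the ferroxidase ceruloplasmin, had 28.2, 61.2 and 12.0 normalized counts at 18 months, against 14.7, 9.72 and 11.0 at 6 months, and stayed below 1 CPM in each microglia library. Ltf, a neutrophil iron binder, had 338.3 CPM in 24 month replicate 1 of the microglia and at most 0.125 CPM in the others, and the neutrophil markers were high in the same library.

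Among genes of iron sensing and systemic control, 2 of 8 were higher and 6 lower in microglia (median -0.24), and 5 of 10 higher and 5 lower in hippocampus (0.01), with 0 called in each. Ireb2, one of the hairpin-binding proteins, had 43.1, 19.7 and 11.6 normalized counts at 18 months, against 53.3, 60.8 and 45.4 at 6 months, with no overlap (-1.25 ± 0.48, SE; limma adjusted p = 0.877). Aco1, the other, had 78.4, 51.7 and 20.4 normalized counts at 18 months, against 8.12, 26.6 and 28.3 at 6 months, with overlap (1.20 ± 0.60). In microglia Aco1 had 43.7, 30.0 and 40.4 CPM at 24 months, against 78.2, 31.4 and 87.7 CPM at 3 months, and Ireb2 had at most 33.5 CPM. Smad4, which carries signals of bone morphogenetic proteins, had the second smallest p in hippocampus (-2.43 ± 1.01, SE; limma adjusted p = 0.890).

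Genes of heme synthesis were 2 higher and 6 lower of 8 in microglia (median -0.47), and 5 higher and 4 lower of 9 in hippocampus (0.01), with 0 called in each.

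Genes of heme transport and breakdown were 5 higher and 6 lower of 11 in microglia (median -0.03), and 6 higher and 4 lower of 10 in hippocampus (0.16), with 0 called in each. Mafg and Mafk, small partners of the factors that switch on Hmox1, had the 2 smallest p-values in microglia and opposite signs. Mafg had 128.3, 140.2 and 135.3 CPM at 24 months, against 245.8, 191.8 and 186.2 CPM at 3 months (-0.63 ± 0.21, SE; edgeR adjusted p = 0.782). Mafk had 89.3, 109.9 and 47.3 CPM at 24 months, against 58.5, 27.9 and 20.5 CPM at 3 months (1.20 ± 0.54; 0.907). Bach1, a repressor of Hmox1, had 21.2, 27.4 and 23.4 CPM at 24 months, against 29.0, 20.2 and 22.5 CPM at 3 months, and is not analysed here in hippocampus. Slc48a1, which moves heme out of lysosomes, had 129.2, 161.0 and 180.8 normalized counts in hippocampus of 18 months, all below the 219.4, 209.5 and 191.1 of 6 months (-0.41 ± 0.20).

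Genes of mitochondrial iron and iron-sulphur clusters were 5 higher and 8 lower of 13 in microglia (median -0.20), and 5 higher and 9 lower of 14 in hippocampus (-0.08), with 0 called in each. Slc25a37, the mitochondrial iron importer, had 28.2, 54.4 and 54.0 CPM in microglia of 24 months, all below the 78.3, 55.9 and 78.5 CPM of 3 months (-0.64 ± 0.41, SE; edgeR adjusted p = 0.978). In hippocampus it had 0, 2.90 and 7.02 normalized counts at 18 months, against 19.4, 6.09 and 13.6 at 6 months, with overlap.

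Across the 6 libraries of a table, the genes whose pattern was most like that of a member were found by Pearson's r on log2 values, given here as a description over points that share age and depth. In hippocampus Hbb-bs was most like Spats2l (r = 0.982), Flcn (0.981) and Nefl (0.977) among 9870 genes, and its r was 0.896 with Hba-a2 and 0.860 with Hba-a1. In microglia Hbb-bs was most like Brox (r = 0.984) and Cab39 (0.982) among 7813 genes, and its r with Hba-a1 and Hba-a2 was -0.25 and -0.45. The genes most like Slc40a1 in microglia were Gna15 (0.995), Stard8 (0.982) and Dpm3 (0.981). The genes most like Trf in hippocampus were Fcrls (0.992), Zfp35 (0.988) and Morn2 (0.978).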

How the data were processed

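RNA of 6 microglia and 6 hippocampus samples was copied from the poly(A) tail by template switching, amplified by PCR and tagmented, per the labels' protocols. These name no molecular identifiers and no stranded kit, so antisense reads could count for a gene. Tools named in the submitters' processing notes are kallisto, DESeq and DESeq2, with no version. Those notes list 2 builds, mm10 and GRCm39, and link neither to a file. For microglia the authors deposited TPM, estimated counts and average transcript lengths, per the file headers. For each tissue the authors deposited a comparison table holding, per the file headers, a normalized count per sample (a signal scaled between samples), a log2 fold change with its SE, a test statistic (a score) and a raw and adjusted p-value. Log2 values of the deposited hippocampus table run 6 over 18 months, judged from its sample columns, and were turned to 18 minus 6 months.

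Here, the test in microglia was edgeR 4.0.16's quasi-likelihood test on rounded estimated counts (R 4.3.3; TMM scaling, filterByExpr). CPM were taken on TMM-scaled library sizes. For want of counts in the hippocampus table, limma 3.58.1 (moderated test with a mean trend) was run on log2(normalized count + 1) for genes with at least 1 in at least 3 samples. Tests were two-sided, with Benjamini-Hochberg adjustment across every gene tested in a table and a threshold of 0.05. Both fits were tested on simulated data. DESeq2 1.42.0, other scalings, filters and pseudocounts, a transcript length offset, a replicate block and leaving out each library were alternatives. Each sum is over the named genes of a list.

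The entry without a gene name, 0.0546% to 0.0771% of microglia counts and 0.0233% to 0.0335% of hippocampus signal, was left out. In hippocampus only 23.5% to 50.3% of low values were whole multiples of a read (tolerance 0.1), which does not recover reads or allow intervals. Intervals cover counting error only, as PCR reads without identifiers are not independent molecules.

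The members and the 16 gene lists (6 of pathways, 10 of cell markers) were chosen with earlier results of these data known. Named are the 10 members, from each pathway list mainly the 2 genes with the smallest p-values and 9 genes taken whatever their result (Slc11a2, Ncoa4, Cp, Ireb2, Aco1, Hmox2, Alas2, Bach1, Slc25a37), and the 3 genes most like a member. Cygb and Ngb are the 2 tested genes of the list of other globins. Ltf, Slc4a1, Ermap, Trim10 and the marker genes named beside a sum were named after their values were seen. Fos was taken to describe the libraries. A few genes that this rule would name are left out.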

Additional observations from a re-analysis of the deposited data

How the results depend on the processing

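Of 206 recomputed member changes 200 kept their direction, 6 reversed and 0 passed an adjusted p of 0.05. With each library left out in turn, microglial Trf ran from -0.15 to 0.0883 on the log2 scale, Tfrc from -0.62 to 3.50 and hippocampal Slc40a1 from -1.15 to 0.0055. The reversals were those of Trf (0.0533 and 0.0336 without 24 month replicates 1 and 2, 0.0883 without 3 month replicate 2) and Tfrc (-0.62 without 24 month replicate 3, -0.07 without 3 month replicate 1), and of Slc40a1 (0.0055 without 18 month replicate 1). The log2 ratio of the microglial globin sum was -1.04, ranged from -2.11 to 0.387 with 1 library left out (above 0 without 3 month replicate 1) and was -1.02 in TPM. In microglia edgeR called 0 genes higher and 0 lower, DESeq2 194 and 57. Leaving out 1 library gave 0 to 50 higher and 0 to 5 lower, the most without 24 month replicate 3, and in hippocampus 0 to 1 higher and 0 lower. The cause was not tested. Same-numbered samples hardly deviated together (r of -0.010 to 0.085 in microglia and 0.009 to 0.014 in hippocampus), so the numbers were not read as pairs. For 24 month replicate 1 the r of 0.085 exceeded its best r with a differently numbered sample of 3 months (-0.047). For the other replicates of both tissues the same-numbered r was the lower. With a replicate block 0 genes were called higher and 0 lower in each tissue, and 238 and 111 microglial genes had an unadjusted p under 0.05, against 375 and 215 without it. In hippocampus 328 and 479 genes did with the block, against 288 and 437 without it. Among the members, counts were lowest for the globins in microglia, and values for Hbb-bt and Hmox1 in hippocampus, which limits their precision.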

Other observations

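Marker sums of cell types not yet set beside a member were as follows. In microglia the 10 astrocyte markers summed to 346.2, 462.6 and 333.1 CPM at 24 months, against 128.7, 241.1 and 274.2 CPM at 3 months, mostly Slc1a3 and Aldoc. The 10 endothelial markers summed to 142.5, 229.4 and 174.1 CPM at 24 months, against 124.2, 116.8 and 138.8 CPM at 3 months, mostly Slc2a1 and Pecam1. Both sums were higher in each library of 24 months. The 10 border macrophage markers ran the other way, at 457.3, 426.0 and 355.2 CPM at 24 months, against 569.7, 489.2 and 488.4 CPM at 3 months, but nearly all of it was Stab1. Others of that list had a higher mean at 24 months, such as Ms4a7 with 3.45 and 0.973 CPM and Mrc1 with 3.90 and 1.77 CPM. The 9 platelet markers summed to 32.6, 38.0 and 23.3 CPM at 24 months, against 93.4, 82.2 and 37.9 CPM at 3 months, and overlapped only narrowly through 3 month replicate 3 (37.9 CPM) and 24 month replicate 2 (38.0 CPM). Most of that sum was Gp9, which made up all of it in 3 month replicate 1 (93.4 CPM), while Clec1b had means of 2.67 CPM (24 months) and 1.10 CPM (3 months). Neuron markers summed to 33.9 to 119.3 CPM at 24 months and 11.0 to 45.7 CPM at 3 months, and choroid plexus markers to 3.28 to 3.93 CPM and 2.11 to 30.98 CPM, the most in 3 month replicate 1.

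In hippocampus the sums overlapped between 18 and 6 months for astrocyte markers (4639.8 to 6097.4 and 5000.2 to 5429.7 normalized counts), border macrophage markers (19.3 to 58.3 and 18.5 to 49.7), neutrophil and monocyte markers (0 to 9.15 and 4.60 to 12.2), platelet markers (0.524 to 12.6 and 0 to 14.7) and microglia markers (662.4 to 709.1 and 534.0 to 668.5). Their part in the values of the globin and iron genes was not tested.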
